A study of Glycine max with 34 samples.

Results

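The parenchyma of the soybean cotyledon, the ground tissue in which the seed lays down most of its protein and oil, was compared with the parenchyma of the embryonic axis of the same seed stage. The comparison rests on 6 of the 34 arrays of the series: 2 of the abaxial cotyledon parenchyma and 2 of the adaxial cotyledon parenchyma, weighted equally as 1 cotyledon mean, against 2 of the axis parenchyma. All tissue came from cultivar Asgrow A3237 (Glycine max), from plants grown at 22 °C under a day of 16 h light and 8 h dark, in seeds of 6.0 to 7.0 mm at early maturation. The labels name no mutation, transgene or treatment in any group. The regions were cut by laser from paraffin sections of 8 microns, and 2 ng of RNA per sample was amplified before hybridization to the Affymetrix soybean array, which reads each gene by 1 or more probe sets. The labels name the arrays of a group biological replicates but give neither the number of seeds pooled nor whether regions share seeds. The p-values therefore measure only the spread between replicate arrays, estimated over all 17 groups of the 34 arrays.

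In a legume embryo both organs fill with reserves, but the cotyledon is the larger store and the axis becomes root and shoot. Glycinins are hexameric globulins that are made as precursors, cut by a vacuolar processing enzyme and packed into protein storage vacuoles, beside albumins, trypsin inhibitors and lipoxygenases. Isoflavones, made from a chalcone by way of chalcone reductase, chalcone isomerase and isoflavone synthase, and soyasaponins, made from beta-amyrin by cytochrome P450 enzymes and sugar transferases, are defence compounds known to be concentrated in the soybean axis. Transcripts for all of these were on the array.

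Signals are given on the linear scale on which they were deposited, and differences are of log2(signal + 16), cotyledon minus axis, with the standard error (SE) of the fit. A probe set was tested if it exceeded the array's background, taken as percentile 95 of the probe sets that read a pathogen rather than soybean, on at least 2 of the 34 arrays. It was called if its adjusted p was under 0.05 and its log2 difference at least 1. The background lay between 140.1 and 204.3 on the 6 arrays, and 47.2% to 51.8% of the soybean probe sets exceeded it. Pearson's r across the tested probe sets, which are not independent, was 0.948 between the abaxial replicates, 0.948 between the adaxial replicates and 0.926 between the axis replicates, and between 0.861 and 0.882 for a cotyledon with an axis array. The spiked hybridization controls differed between the groups, at 1.40 and 1.39 times the median array in the axis parenchyma and 0.605 to 0.824 times in the cotyledon parenchyma.

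Of 28441 soybean probe sets tested, 971 (3.41%) were called higher and 1147 (4.03%) lower in the cotyledon parenchyma, together 7.45%. The median log2 difference over all probe sets tested was -0.02, and among those called it was 2.06 in the higher and -2.18 in the lower ones. A log2 difference of at least 4 was found in 80 of the higher and 148 of the lower probe sets. With the level of the hybridization controls as a covariate, 759 were higher and 894 lower. Of these, 587 and 756 were among those called without the covariate. The axis mean rests on 2 arrays: without its replicate 2 the counts were 573 and 674, and without its replicate 1 they were 695 and 737. The array annotation gives an informative gene symbol for 887 of the genes tested, of which 56 (6.31%) were called higher and 92 (10.4%) lower, and the text below is limited to these. Their median log2 difference was -0.10. Counts called among the gene groups below are to be read beside these shares, against which they were not tested. A gene that was not called is not thereby equal in both organs. Of all probe sets tested, 16.1% were higher and 17.8% lower in the cotyledon with groups that did not overlap, more than were called. Among uncalled genes whose signals are given below, this holds for P34, VPE, D-II, PAL2.1, PIP1-7 and FAD2-1A.

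**Figure D1:**
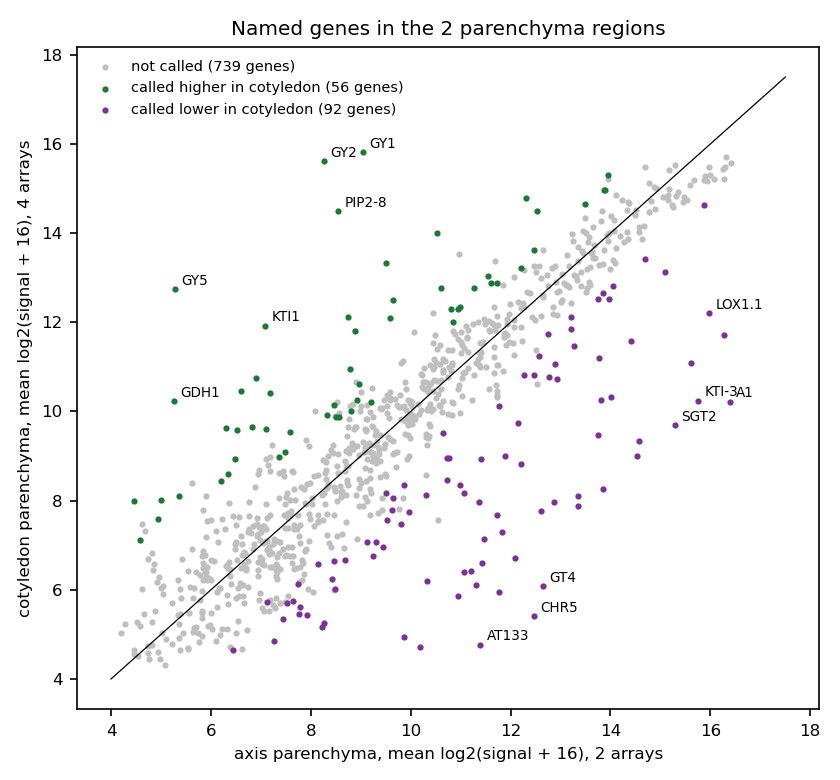
Mean log2(signal + 16) of each of the 887 named genes in axis parenchyma (x axis, 2 arrays) and cotyledon parenchyma (y axis, 4 arrays). The line marks equal levels; 56 green points were called higher and 92 purple points lower in the cotyledon. GY1, GY2, GY5 and PIP2-8 lie farthest above the line, and CHR5, AT133 and GT4 farthest below it.

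Transcripts of 3 glycinin genes were far higher in the cotyledon parenchyma. Among the 10 storage protein genes tested, 3 were called higher, all of them glycinins (GY1, GY2 and GY5), and 1 was called lower, A1, which encodes albumin-1, a small cysteine-rich albumin. The median log2 difference of the list was 1.72, against -0.02 over all probe sets. GY1 read 64601 and 53720.3 on the abaxial side and 61119.7 and 53394 on the adaxial side, against 557 and 467 in the axis. The 4 cotyledon arrays were close to each other and all were far above both axis arrays, a 110.3-fold difference (log2 6.79 ± 0.81 SE, adjusted p = 1.12e-06). GY2 behaved in the same way, with 57249, 49863, 50571 and 44907 on the 4 cotyledon arrays and 334 and 257 in the axis, a 164-fold difference (log2 7.35 ± 0.49 SE, adjusted p = 5.31e-11). GY5 was uneven within the cotyledon: its signal was 30150.5 and 35969.8 on the abaxial side but 848 and 2295 on the adaxial side. In the axis it read 31.6 and 15.8, under the background on both arrays, so the difference was at least 32.4-fold (log2 7.45 ± 0.62 SE, adjusted p = 1.85e-09).

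A1 ran the opposite way. Its signal was 7373 and 3498 in the abaxial and 369 and 188 in the adaxial cotyledon parenchyma, against 84849.8 and 87299.8 in the axis. The groups did not overlap, and the axis was 72-fold higher (log2 -6.17 ± 0.50 SE, adjusted p = 1.43e-09). The remaining 6 storage protein genes were not called. CG-1, a beta-conglycinin gene, ranged from 6206 to 12393 in the cotyledon and read 6633 and 5075 in the axis, so its groups overlapped (log2 0.61, adjusted p = 0.519). The 2S albumin gene GM2S-1 ranged from 1057 to 30969 in the cotyledon against 2191 and 867 in the axis (log2 1.77, adjusted p = 0.227), and its groups overlapped. P34, a papain-like seed vacuole protein and allergen, was bright in both organs (38899.5 to 51421 and 27284 and 25937, log2 0.77, adjusted p = 0.607), and GY3, GY7 and the basic 7S globulin BG7S-1 lay at log2 1.66, -0.98 and 2.62, with adjusted p = 0.141, 0.496 and 0.0699.

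Of the 6 genes for vacuolar processing enzymes and other vacuolar proteases, 1 was called, VPE2, a cysteine protease of the legumain type. It read 1665, 1683, 1420.5 and 952 on the cotyledon arrays and 180.1 and 31.7 in the axis. Both axis values lay under the background, and the cotyledon was at least 6.7-fold higher (log2 3.87 ± 0.63 SE, adjusted p = 9.28e-05), or 2.85 to 4.89 with 1 axis array left out. The second processing enzyme gene, VPE, was bright in both (11214 to 15355 and 10011 and 10895) and was not called (log2 0.34, adjusted p = 0.558). VPE2 is read by a probe set that may also bind near-identical copies, as are GY2, KTI-2, KTI-3, CHR5, IFS1, SGT2, CHI4A and AT133.

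**Figure D2:**
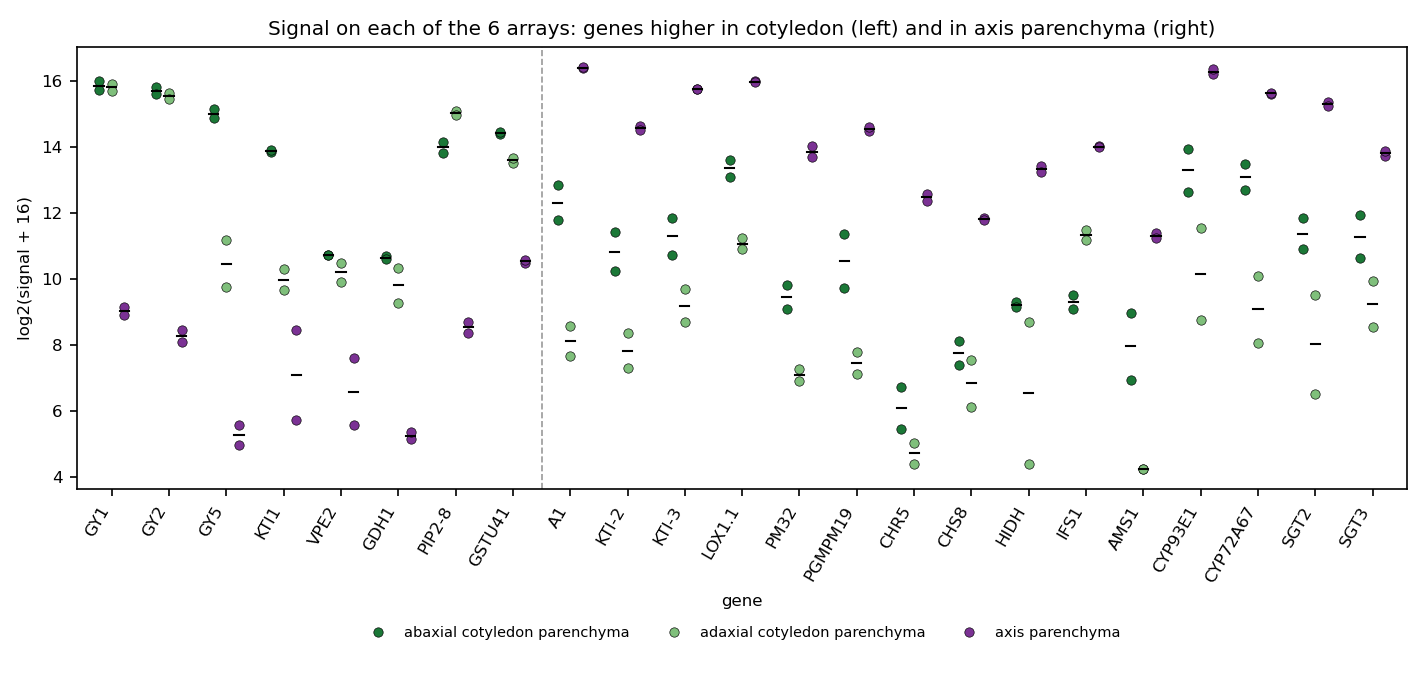
Log2(signal + 16) on each of the 6 arrays (points) with the mean of each region's 2 arrays (bars) for 8 genes called higher (left of the dashed line) and 15 called lower in the cotyledon. In GY1 and GY2 the sides coincide, whereas GY5 and KTI1 are higher on the abaxial side, and for the genes on the right except IFS1 the adaxial mean is the lowest of the 3 regions.

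Trypsin inhibitor transcripts divided between the organs gene by gene. Of 9 protease inhibitor genes, 1 was called higher (KTI1) and 3 lower (KTI-2, KTI-3 and BBI-2), and the list's median was -0.60. KTI1, a Kunitz inhibitor gene, read 14709 and 15227 on the abaxial side, 1256 and 792 on the adaxial side and 37.1 and 333 in the axis. Every cotyledon array lay above both axis arrays, and the difference was at least 14.7-fold (log2 4.84 ± 0.67 SE, adjusted p = 9.91e-06), or 3.48 to 6.20 with 1 axis array left out. KTI-3, another Kunitz gene in the annotation, read 55428 and 55403 in the axis but 3681 and 1678 in the abaxial and 814 and 399.5 in the adaxial parenchyma. The axis was 45.7-fold higher (log2 -5.51 ± 0.40 SE, adjusted p = 1.68e-10). KTI-2 followed with 25625 and 23294 in the axis and 2718, 1187, 311 and 142 in the cotyledon, a 38-fold difference (log2 -5.25 ± 0.42 SE, adjusted p = 1.11e-09). BBI-2, a Bowman-Birk type inhibitor gene, was at 1336 and 995 in the axis and 6.4 to 13.1 in the cotyledon, where all 4 arrays were under the background (at least 6.76-fold, log2 -5.46 ± 0.69 SE, adjusted p = 2.96e-06). D-II and KTI3 were bright in both organs and were not called: the Bowman-Birk gene D-II ranged from 45661 to 59441 against 84272 and 78043 (log2 -0.60, adjusted p = 0.735), and KTI3, which the annotation holds apart from KTI-3, from 40078 to 47231 against 42458 and 32287 (log2 0.24, adjusted p = 0.876).

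Lipoxygenases oxidize polyunsaturated fatty acids, and the seed isoforms are abundant storage-tissue proteins. Of 9 lipoxygenase genes 5 were called, all lower in the cotyledon parenchyma, and the list's median was -1.62. LOX1.1, the seed lipoxygenase-1 gene, read 65129 and 63679.5 in the axis, 12410.2 and 8764 in the abaxial and 2398 and 1899.5 in the adaxial parenchyma. The axis was 13.6-fold higher (log2 -3.76 ± 0.55 SE, adjusted p = 2.02e-05). LOX7 had 6348 and 6195 in the axis against 300.4, 307, 25.7 and 507 in the cotyledon, a 28.9-fold difference (log2 -4.85 ± 0.66 SE, adjusted p = 7.30e-06), which was -5.77 to -3.94 with 1 adaxial array left out, and its 4 probe sets were all called the same way. LOX10 read 2146 and 2586 in the axis and 362, 65.2, 23.1 and 28.2 in the cotyledon (at least 11.4-fold, log2 -4.80 ± 0.77 SE, adjusted p = 9.00e-05). The vegetative lipoxygenase genes VLXB (log2 -1.33, adjusted p = 0.0296) and VLXC (log2 -1.82, adjusted p = 0.0321) were called with smaller differences. Without either axis array both calls were lost at about the same size (log2 -1.31 and -1.36 for VLXB, -1.72 and -1.92 for VLXC), and 3 of the 9 genes were called. LOX2 and LOX3, the other abundant seed forms, were not called, at log2 0.36 (adjusted p = 0.821) and -1.06 (adjusted p = 0.393). AOC3, an allene oxide cyclase gene whose enzyme acts after lipoxygenase in jasmonate synthesis, read 3221 and 3524 in the axis and 142 to 363 in the cotyledon. It was at least 15.7-fold higher in the axis (log2 -4.04 ± 0.35 SE, adjusted p = 3.97e-09), and was chosen after its values were seen.

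Seed maturation genes were more often called lower than higher in the cotyledon parenchyma, as were all named genes (10.4% lower and 6.31% higher). Late embryogenesis abundant (LEA) and other maturation proteins accumulate as seeds approach drying. Of 31 tested, 6 were called lower and 1 higher, with a median of -0.76; the counts were 4 and 0 without axis replicate 2. PM32 read 13275 and 16543 in the axis, 891 and 528 in the abaxial and 104 and 138 in the adaxial parenchyma, with 2 of the 4 cotyledon values under the background. The axis was at least 41.8-fold higher (log2 -5.59 ± 0.44 SE, adjusted p = 9.64e-10). PGMPM19 was at 22629 and 25006 in the axis, 2602 and 841 on the abaxial and 205 and 124 on the adaxial side (46.3-fold, log2 -5.53 ± 0.54 SE, adjusted p = 3.90e-08). PM25 and PM9 showed smaller differences (log2 -2.41 (adjusted p = 0.00286) and -1.99 (adjusted p = 9.82e-06)). PM25 read 3404 and 1600.3 on the abaxial and 395 and 223 on the adaxial side, against 4777 and 4326 in the axis. With the abaxial side alone neither was called (log2 -0.96, adjusted p = 0.450, and log2 -1.02, adjusted p = 0.0523). SBP65, a gene for a seed biotin-carrying protein, was the 1 called higher, from 39.2 to 599.8 against 22.8 and 10.7 (log2 3.01, adjusted p = 0.0327), and lost its call without either axis array (adjusted p = 0.119 and 0.240). Bright members such as PM12, PM30 and PM34 were not called, at log2 -0.77, -0.48 and -0.70 (adjusted p = 0.71, 0.665 and 0.423).

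Several genes of the isoflavonoid branch were higher in the axis parenchyma. Of 34 phenylpropanoid and flavonoid genes, 11 were called and all 11 were lower in the cotyledon, with a list median of -0.63; with 1 array left out the count lay between 10 and 12. The largest difference belonged to CHR5, a chalcone reductase gene, at 6113 and 5227 in the axis and 90.5, 28.5, 5.4 and 16.7 on the cotyledon arrays. All 4 cotyledon values were under the background, so the axis was at least 32.8-fold higher (log2 -7.05 ± 0.76 SE, adjusted p = 2.12e-07). A second reductase gene, CHR1, read 2033 and 1870.5 in the axis and 13.6 to 85.3 in the cotyledon (at least 11.4-fold, log2 -5.09 ± 0.67 SE, adjusted p = 5.70e-06), while CHR4 was not called, from 348 to 468 against 309 and 502 (log2 -0.02, adjusted p = 0.988). CHS8, a chalcone synthase gene, was at 3688 and 3524 in the axis and 264, 152, 54.6 and 171 in the cotyledon, a 22.9-fold difference (log2 -4.52 ± 0.41 SE, adjusted p = 9.40e-09). CHS1 ranged from 195 to 410.0 against 392 and 298, with overlapping groups (log2 -0.25, adjusted p = 0.864).

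Some genes of later steps of the branch were also higher in the axis, and others were not called. IFS1, an isoflavone synthase gene, read 16631 and 16351 in the axis, 713 and 528 in the abaxial and 2299.8 and 2849.6 in the adaxial parenchyma, and the axis was 13-fold higher (log2 -3.70 ± 0.44 SE, adjusted p = 1.02e-06). Its paralog IFS2 overlapped between the groups, from 966 to 2464 against 1503 and 1194 (log2 0.24, adjusted p = 0.864). HIDH, the dehydratase that completes the isoflavone, was at 11035 and 9722 in the axis and 611, 556, 398 and 5 in the cotyledon (43.9-fold, log2 -5.46 ± 0.83 SE, adjusted p = 3.97e-05). The lone value of 5 weighs on this difference, which was -4.38 without adaxial replicate 2 and -6.53 without adaxial replicate 1. All 4 chalcone isomerase genes called were lower in the cotyledon, CHI1A (log2 -2.48, adjusted p = 2.68e-05), CHI1B1 (log2 -2.58, adjusted p = 8.79e-05), CHI2-A (log2 -1.82, adjusted p = 0.0023) and CHI4A (log2 -1.98, adjusted p = 9.59e-07); CHI3A1 was not called (log2 0.64, adjusted p = 0.603). Another probe set of CHI1B1 had the opposite sign, and CHI2-A lost its call without axis replicate 2 (adjusted p = 0.0677). At the head of the pathway 4CL4, a coumarate-CoA ligase gene, was called lower in the cotyledon (log2 -2.01, adjusted p = 0.00218), and lost the call without axis replicate 1 (log2 -1.60, adjusted p = 0.0989). Other genes at the head of the pathway and those at its end that are given here were not called: PAL2.1, a phenylalanine ammonia-lyase gene, ranged from 11787 to 14859 against 15714 and 19911 (log2 -0.44, adjusted p = 0.245), C4H lay at log2 -1.14 (adjusted p = 0.195), and the isoflavone glucosyl and malonyl transferase genes IF7GT and IF7MaT at log2 -0.02 (adjusted p = 0.993) and 0.16 (adjusted p = 0.877).

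SOMT-9, an O-methyltransferase gene, read 3079.9 and 3900.1 in the axis and 223, 12.3, 76.7 and 6.9 in the cotyledon (at least 18.7-fold, log2 -5.82 ± 0.70 SE, adjusted p = 1.10e-06), or -6.59 to -5.05 with 1 abaxial array left out. Its highest mean, 20090.4, was in the adaxial epidermis of the cotyledon, and 1 of its 3 probe sets had the opposite sign. CYP98A2, a member of the P450 family that in Arabidopsis hydroxylates coumaroyl esters, was at 2309 and 3429.5 in the axis and 68 to 196 in the cotyledon (at least 14.8-fold, log2 -4.33 ± 0.47 SE, adjusted p = 2.15e-07). Of its 6 probe sets, 2 were called the same way.

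All soyasaponin genes of the list were higher in the axis parenchyma. The list holds 4 genes, all 4 were called lower in the cotyledon with each array left out in turn, and their median log2 difference was -4.54. CYP93E1, the beta-amyrin 24-hydroxylase gene, read 74891 and 83747 in the axis, 15703 and 6401 in the abaxial and 2968 and 417 in the adaxial parenchyma. The axis was 23.4-fold higher (log2 -4.55 ± 0.75 SE, adjusted p = 1.09e-04), with -5.25 to -3.85 when 1 adaxial array was left out, and 1 of its 4 probe sets had the opposite sign. CYP72A67, a further oxidase of the pathway, was at 49882 and 50906 in the axis, 11429.9 and 6597 on the abaxial and 1082 and 251 on the adaxial side (23.2-fold, log2 -4.54 ± 0.40 SE, adjusted p = 5.20e-09). For the sugar transferase SGT2 the values were 41555 and 38573 in the axis against 3648, 1899.8, 724 and 76.7 (48.1-fold, log2 -5.59 ± 0.55 SE, adjusted p = 3.77e-08), or -6.34 to -4.84 with 1 adaxial array left out. SGT3 read 13630.4 and 14913 against 3904, 1576, 965 and 361 (11.6-fold, log2 -3.53 ± 0.38 SE, adjusted p = 2.00e-07).

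Another pair of genes of the pathway entered through the size of their differences. AMS1, the beta-amyrin synthase gene that makes the carbon skeleton, read 2651 and 2404 in the axis and 487, 108, 3 and 3.1 in the cotyledon, where 3 of 4 values were under the background (at least 11.3-fold, log2 -5.20 ± 0.58 SE, adjusted p = 3.24e-07). GT4, which the RefSeq gene table also names GmSg-1, a glycosyltransferase of the terminal saponin sugar, was at 5622 and 7301 in the axis and 194, 29.6, 58.5 and 14.3 in the cotyledon (at least 35.6-fold, log2 -6.56 ± 0.73 SE, adjusted p = 3.77e-07). A second probe set of GT4 had the opposite sign. AT133, for which no role is given here, had the second largest difference of the lower genes, at 3014 and 2377 in the axis and 6.5 to 19 in the cotyledon (at least 15.6-fold, log2 -6.62 ± 0.55 SE, adjusted p = 2.26e-09).

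**Figure D3:**
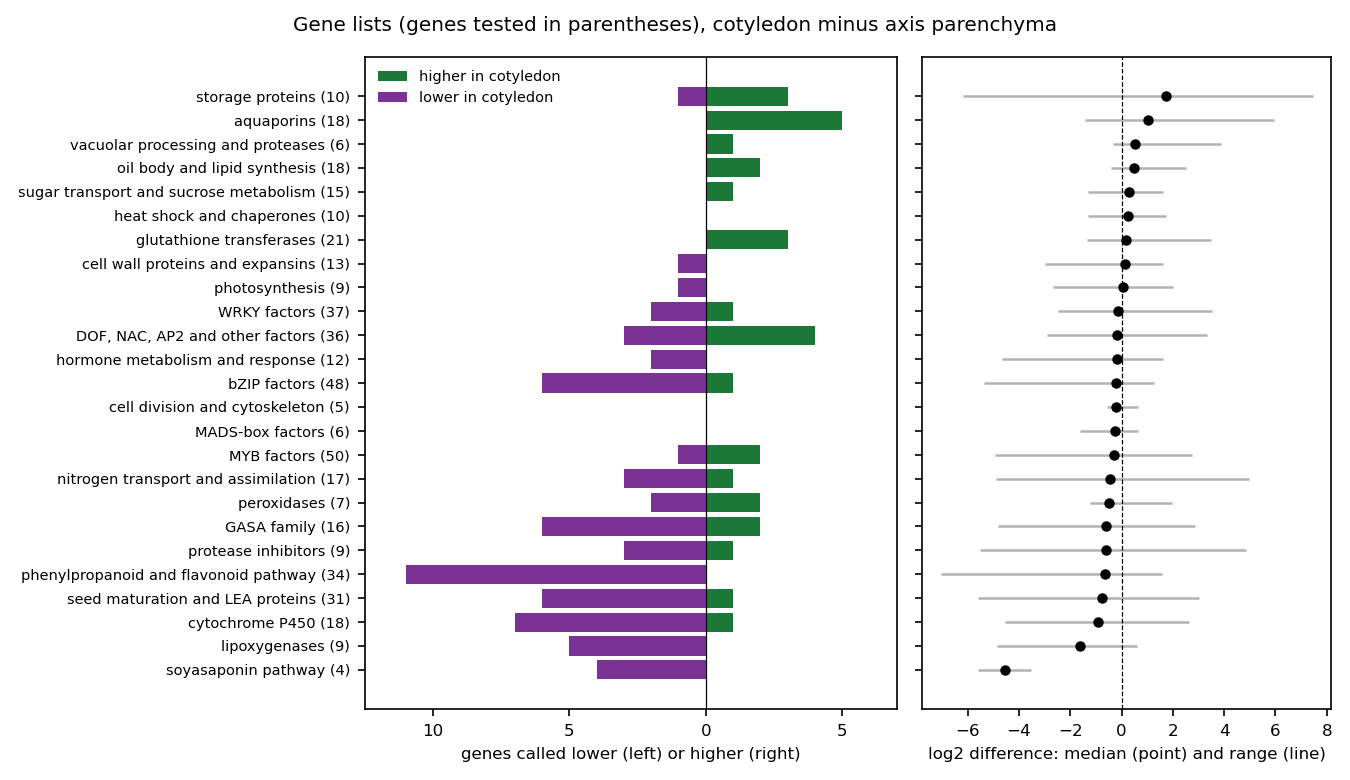
Genes called lower (purple, to the left) and higher (green, to the right) in cotyledon parenchyma for 25 gene lists, and the median and range of the log2 difference of each list. Storage proteins and aquaporins have the highest medians (1.72 and 1.03), and soyasaponin and lipoxygenase genes the lowest (-4.54 and -1.62).

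Aquaporins are water channels, and PIP genes encode those of the plasma membrane. Of 18 aquaporin genes, 5, all PIP, were called higher and none lower, with a median of 1.03, and the count was between 3 and 5 with 1 array left out. PIP2-8 led with 18292 and 14299.5 on the abaxial and 34659 and 31665 on the adaxial side, against 318 and 401 in the axis. That was a 62.1-fold difference (log2 5.96 ± 0.65 SE, adjusted p = 2.33e-07). PIP2-6, PIP1-10, PIP2-1 and PIP1-8 differed by far less, at log2 1.36, 1.16, 1.09 and 1.02. PIP1-10 dropped under the log2 limit without axis replicate 1 (0.97), and PIP1-8 was not called without any 1 of the 6 arrays (adjusted p from 0.0702 to 0.330). PIP1-7, at 67325 and 71478 in the axis and 32664 to 44541 in the cotyledon, was not called (log2 -0.86, adjusted p = 0.109).

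Among genes of nitrogen, lipid and sugar metabolism the calls went both ways. Of all named genes, 6.31% were called higher and 10.4% lower. GDH1, a glutamate dehydrogenase gene, read 1638, 1544, 1273 and 609 on the cotyledon arrays and 19.6 and 25.4 in the axis, under the background on both axis arrays (at least 5.69-fold, log2 4.97 ± 0.39 SE, adjusted p = 7.41e-10). It was the only 1 of 17 nitrogen genes called higher, and 3 were called lower: the nitrate transporter gene NRT1-3 (log2 -4.90, adjusted p = 2.06e-08) and the phosphoenolpyruvate carboxylase genes PPC1 (log2 -1.76, adjusted p = 4.25e-04) and PEPC7 (log2 -1.01, adjusted p = 0.00565). PEPC7 was not called without axis replicate 2 (adjusted p = 0.161). NRT1-3 read 8645 and 6523 in the axis and 597, 252, 119 and 165 in the cotyledon, a 29.9-fold difference. Of 18 oil and lipid genes, 2 were called higher and none lower, with a median of 0.48. ACCB-2, for the biotin carrier subunit of plastid acetyl-CoA carboxylase, ranged from 10430.1 to 13739.5 against 5508 and 5876 (2.2-fold, log2 1.14 ± 0.25 SE, adjusted p = 0.00256), and FAD6.1, a plastid desaturase gene, was called with both groups under the background. The desaturase FAD2-1A, which makes seed linoleate, ranged from 33710.0 to 44683 against 16337 and 15104 and was not called (log2 1.27, adjusted p = 0.146), nor was WRI1B, for a regulator of oil synthesis (log2 1.22, adjusted p = 0.0707). Among 15 sugar genes 1, SWEET13, was called higher (log2 1.62, adjusted p = 0.0395), and it lost the call without axis replicate 1 (adjusted p = 0.428) and without each of the 4 cotyledon arrays (adjusted p from 0.0727 to 0.0891).

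Glutathione transferases, which conjugate toxic and reactive compounds, gave 3 calls of 21 genes, all higher. GSTU41 read 21409.7 and 22209.7 on the abaxial and 11758 and 13086 on the adaxial side against 1423 and 1509.7 in the axis (11.1-fold, log2 3.47 ± 0.46 SE, adjusted p = 5.02e-06); 1 of its 3 probe sets had the opposite sign. GSTU37 (log2 2.52, adjusted p = 9.28e-05) was uneven between the sides, at 15382 and 12860.3 against 1420.0 and 1276 on the adaxial side and 762 and 735 in the axis. With the adaxial side alone it was not called (log2 0.83, adjusted p = 0.387). Peroxidase genes went both ways, 2 higher and 2 lower of 7. PRX2B was the leading one, from 21892 to 24259.9 in the cotyledon against 7142 and 4804 in the axis (3.94-fold, log2 1.98 ± 0.20 SE, adjusted p = 9.78e-08).

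Among transcription factor genes the calls went both ways, where 6.31% of all named genes were called higher and 10.4% lower. Of 48 bZIP factor genes, 6 were called lower and 1 higher, and the counts were 3 and 1 without either axis array. BZIP110 read 4362 and 4365 in the axis and 48.7, 58.4, 216 and 93.8 in the cotyledon (at least 23.9-fold, log2 -5.38 ± 0.46 SE, adjusted p = 2.93e-09). BZIP111 read 1469.7 and 1096 against 4.7 to 99.2 (at least 7.43-fold, log2 -4.13 ± 0.59 SE, adjusted p = 1.89e-05), or -4.73 to -3.52 with 1 adaxial array left out. BZIP126 was the 1 called higher, from 6651 to 8731 against 2982 and 3255 (log2 1.27, adjusted p = 0.00197). BZIP50, 1 of the 6 lower, lay near the background in both groups, and another of its probe sets had the opposite sign. Of 50 MYB genes, 2 were higher and 1 lower, and with 1 array left out 0 to 1 were higher; MYB177, of the 2, lost its call without each of the 6 arrays. The lower one, MYB48, read 804 and 1057 in the axis and 8.1 to 21.3 in the cotyledon (at least 5.42-fold, log2 -4.94 ± 0.63 SE, adjusted p = 2.99e-06). Of 37 WRKY genes 1 was higher and 2 were lower, and none of these 3 kept its call without axis replicate 2. Among 36 DOF, NAC, AP2 and heat shock factor genes 4 were higher and 3 lower, and with 1 array left out 1 to 3 in either direction. NAC6 led the higher ones, from 604 to 1226 against 60.7 and 64.5 (at least 3.79-fold, log2 3.34 ± 0.67 SE, adjusted p = 0.0013), and HSF-01 the lower ones (log2 -2.90, adjusted p = 0.00158). By limma 0 of 6 MADS-box, 0 of 10 chaperone and 0 of 5 cell division genes were called, and 1, 0 and 1 of them had an unadjusted p under 0.05.

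The 2 of 12 hormone-related genes called were both higher in the axis, as were 10.4% of all named genes. PIN2A, an auxin efflux carrier gene, read 2455 and 1863 in the axis and 71.8, 6.9, 136 and 153 in the cotyledon, all under the background (at least 12.5-fold, log2 -4.67 ± 0.57 SE, adjusted p = 1.65e-06). BRI1B, a brassinosteroid receptor gene, was at 2079.7 and 2154 in the axis and 194 to 359 in the cotyledon (7.35-fold, log2 -2.88 ± 0.35 SE, adjusted p = 1.21e-06). The GASA genes encode small cysteine-rich peptides that respond to gibberellin in other plants. Of 16 tested, 6 were lower and 2 higher; without either axis array the count of lower ones was 3. GASA14 read 2789 and 2654 in the axis and 27.7, 60.7, 302 and 68.8 in the cotyledon (at least 13.8-fold, log2 -4.81 ± 0.39 SE, adjusted p = 1.66e-09). GASA27 was bright in both but higher in the cotyledon, from 25049.8 to 31457 against 4925 and 5252 (5.58-fold, log2 2.48 ± 0.33 SE, adjusted p = 6.32e-06). GASA22 and GASA12 depended on the side: GASA22 read 32089 and 27694 on the abaxial and 1000.1 and 1233 on the adaxial side, with 939 and 665 in the axis, and GASA12 read 6519 and 7578, 269 and 743 and 5843 and 5534 in the same order. With the adaxial side alone GASA22 was not called (log2 0.48), and with the abaxial side alone GASA12 had the opposite sign (log2 0.31). GASA33, 1 of the 6 lower, lay near the background in both groups, so no fold is given.

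Of 18 cytochrome P450 genes, among them CYP93E1, CYP72A67 and CYP98A2, 7 were called lower and 1 higher, with a median of -0.92. The higher one, CYP71A10, lay near the background in both groups. With the hybridization controls as a covariate 3 were lower. Single calls came from the cell wall enzyme gene XTH1, the 1 of 13 called (log2 -2.18, adjusted p = 8.15e-04), and ELIP, for an early light-induced protein, the 1 of 9 photosynthesis genes (log2 -2.65, adjusted p = 1.50e-05), both lower. With the hybridization control covariate XTH1 was not called (log2 -1.41, adjusted p = 0.0515).

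Several of the largest differences belong to genes outside the lists. GH (log2 3.84, adjusted p = 4.37e-05) and COR1 (log2 3.38, adjusted p = 4.63e-09), for which no role is given here, were higher in the cotyledon, and H1 (log2 -5.25, adjusted p = 3.24e-09), likewise, was lower. GH read 8401, 9046, 11268 and 13101 against 790.3 and 631 in the axis, and H1 95.7 to 572 against 10098 and 10882. Some calls were lost without 1 of the 2 axis arrays. SPX3, for an SPX-domain protein of the phosphate response, read 16.4 and 426 on the axis arrays and 1202 to 2189.5 in the cotyledon (log2 3.86, adjusted p = 0.00415); without axis replicate 1 it was not called (log2 1.97, adjusted p = 0.315), and without axis replicate 2 its log2 difference was 5.74. PSK3, a phytosulfokine peptide precursor gene (log2 3.05, adjusted p = 0.0017), was lost in the same way (log2 1.65, adjusted p = 0.214), and stood at 4.46 without axis replicate 2. NAC2 (log2 3.22, adjusted p = 0.00344) was not called without axis replicate 2 (log2 1.40, adjusted p = 0.387), and stood at 5.04 without axis replicate 1. WRKY27 (log2 3.52, adjusted p = 0.00258) kept most of its size without axis replicate 2 but not its call (log2 3.28, adjusted p = 0.0614).

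The abaxial (outer) and adaxial (inner) sides of the cotyledon were also compared with each other, and most genes called between the organs were not called between the sides. Between the sides 172 probe sets (0.605%) were called higher on the abaxial and 118 (0.415%) on the adaxial side. Of the 1147 probe sets called lower in the cotyledon, 79 (6.89%) were higher on the abaxial and 21 (1.83%) on the adaxial side; of the 971 called higher, 27 and 29 were. The side and the cotyledon mean are drawn from the same 4 arrays, so a lower adaxial value also lowers the mean. Among the 92 named genes lower in the cotyledon, 14 were higher on the abaxial side and 1, IFS1, on the adaxial side; over all 887 named genes the counts were 24 (2.71%) and 8 (0.902%). The 14 include A1 (log2 abaxial minus adaxial 4.18, adjusted p = 6.10e-05), CYP72A67 (4.01, adjusted p = 3.44e-06), AMS1 (3.71, adjusted p = 0.00186), SGT2 (3.34, adjusted p = 0.00333), PGMPM19 (3.09, adjusted p = 0.00735) and KTI-2 (2.99, adjusted p = 5.15e-04).

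Many of these side differences depended on 1 array. Each side has 2 arrays, and of the 22 named genes called both by organ and by side, 8 were called without each of the 4 arrays in turn. The 8 are GY5, GASA22, GSTU37, GASA12, PM9, CYP72A67 and A1 on the abaxial side and CCR, for cinnamoyl-CoA reductase of lignin synthesis, on the adaxial side (-4.37, adjusted p = 1.90e-07). SGT2, PGMPM19, KTI-3, SGT3 and PM25 lost the call without abaxial replicate 1 and without adaxial replicate 2 (highest adjusted p from 0.284 to 0.532), AMS1 and KTI-2 without abaxial replicate 1 (0.157 and 0.0561), and KTI1 and PM32 without 3 of the 4 arrays. IFS1, GER10 and AAH lost it without each of the 4 arrays (highest adjusted p = 0.403, 0.164 and 0.133). KTI-3 had 2679 as its abaxial mean, 607 as its adaxial mean and 55415 in the axis. With the abaxial side alone CCR was not called between the organs (log2 0.08, adjusted p = 0.954). Another of its probe sets had the opposite sign between the organs.

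Whether a difference between cotyledon and axis was larger in parenchyma than in the other tissues was tested as a difference of differences, parenchyma minus epidermis (4 cotyledon and 2 axis epidermis arrays) and parenchyma minus vascular bundle (2 and 2 arrays). The differences compared share no arrays. Against the epidermis 303 probe sets (1.07%) were called higher and 649 (2.28%) lower, together 3.35%, and against the vascular bundle 240 (0.844%) and 624 (2.19%), together 3.04%. Of the 1147 probe sets lower in cotyledon parenchyma, 328 (28.6%) were also lower against the epidermis and 401 (35.0%) against the vascular bundle, and 216 against both. Of the 971 higher ones, 147 (15.1%) and 135 (13.9%) were higher in these tests, and 54 in both. These subsets share the parenchyma arrays with the lists they are drawn from, so the shares are descriptions.

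The cotyledon-minus-axis contrast itself was called in the same direction in epidermis for 321 (33.1%) of the higher and 367 (32.0%) of the lower probe sets, where 5.63% and 4.41% of all tested were called. In the vascular bundle it was so for 251 (25.8%) and 171 (14.9%), where 3.50% and 2.23% were called, together 5.73%. Of all 887 named genes, 8.46% were called higher and 7.55% lower in epidermis and 8.23% and 4.62% in vascular bundle. Among those called in parenchyma, GY1, GY2, GY5, PIP2-8, GSTU41, GASA27, COR1 and GH were among the 16 higher in all 3 tissues. Those lower in all 3 numbered 9: BRI1B, CHS8, CYP90A15, ELIP, GAI1, H1, NRT1-3, PHYA and PM32, which were named after their values were seen. P34, not called in parenchyma, was higher in the cotyledon in epidermis (4.59, adjusted p = 6.16e-05) and vascular bundle (6.90, adjusted p = 4.10e-06). GY1 differed by log2 5.84 in epidermis, 8.15 in vascular bundle and 6.79 in parenchyma, and neither difference of differences was called (0.94 (adjusted p = 0.763) and -1.36 (adjusted p = 0.705)). For GY2 the contrast was larger in parenchyma than in epidermis by 5.32 (adjusted p = 1.68e-05), and for GY5 by 4.74 (adjusted p = 0.00135).

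Several axis-high genes of parenchyma showed no such difference, or the opposite one, in the other tissues. CHR5 differed by log2 -7.05 in parenchyma but by -0.22 (adjusted p = 0.895) in epidermis and 1.53 (adjusted p = 0.338) in vascular bundle. The differences of differences were -6.83 (adjusted p = 2.24e-04) and -8.58 (adjusted p = 2.73e-05). SGT2 was lower in cotyledon parenchyma but higher in cotyledon epidermis than in axis epidermis (2.25, adjusted p = 0.00633), a difference of -7.84 (adjusted p = 1.84e-07). CHI1A, CHI2-A and CHI4A were also called higher in the cotyledon in epidermis, opposite to parenchyma. In vascular bundle CHI1B1 was called higher and CHI2-A lower. Of the 34 phenylpropanoid and flavonoid genes, 6 were higher and 3 lower in epidermis, beside 8.46% and 7.55% of all named genes. In vascular bundle 3 were higher and 5 lower, beside 8.23% and 4.62%. KTI-2 and KTI-3 were called higher in the cotyledon in the vascular bundle (2.55 (adjusted p = 0.0015) and 1.85 (adjusted p = 0.0132)), opposite to parenchyma, with differences of -7.80 and -7.37. CYP72A67 and AMS1 were not called in epidermis (-0.02 (adjusted p = 0.983) and 0.64 (adjusted p = 0.529)) or in vascular bundle (0.14 (adjusted p = 0.906) and 1.93 (adjusted p = 0.0823)). Of all 887 named genes, 2.03% were called higher and 5.07% lower against the epidermis, and 1.58% and 6.43% against the vascular bundle. Of the 92 lower in cotyledon parenchyma, 24 were called in both tests in that direction, among them A1, AMS1, BBI-2, CHI1A, CHI4A, CHR5, CYP72A67, GT4, IFS1, KTI-2, KTI-3, SGT2, SGT3 and SOMT-9. Over all 148 genes, 48 were called against the epidermis and 50 against the vascular bundle, and 18 and 15 of these lost the call without some array, BBI-2 among them (against the epidermis, highest adjusted p = 0.0667). CYP93E1 was called in neither (-3.53 (adjusted p = 0.064) and -3.96 (adjusted p = 0.0561)).

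PGMPM19, BZIP110, GASA14 and PIN2A behaved otherwise. They were lower in the cotyledon in parenchyma and in epidermis, at log2 -5.18, -4.02, -3.92 and -3.92 in the latter, but not called in vascular bundle, and their differences against the vascular bundle were -6.00, -5.07, -4.88 and -3.90 (adjusted p = 3.45e-05, 3.21e-05, 7.64e-06 and 0.00931). PIN2A lost this call without axis parenchyma replicate 1 (adjusted p = 0.0514). Among genes higher in cotyledon parenchyma, GDH1, GY5, PIP2-1 and VPE2 were higher in both tests, PIP2-1 with a call against the epidermis that was lost without 4 of the 12 arrays (log2 1.09, highest adjusted p = 0.133). GDH1 was lower in cotyledon than in axis epidermis (-3.88, adjusted p = 1.19e-07), so the contrasts differed by 8.85 (adjusted p = 1.53e-10). VPE2 differed by -0.91 (adjusted p = 0.394) in epidermis and -0.54 (adjusted p = 0.73) in vascular bundle, and its differences of differences were 4.77 (adjusted p = 0.00147) and 4.40 (adjusted p = 0.00704), the latter not called without axis parenchyma replicate 2 (adjusted p = 0.0921).

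Across the 16 captured compartments, the axis parenchyma gave the highest mean signal for 203 (17.7%) of the 1147 probe sets lower in the cotyledon, against 4.02% of all tested. The abaxial and adaxial cotyledon parenchyma were highest for 179 (18.4%) and 194 (20.0%) of the 971 higher ones, against 4.84% and 4.90%, and the seed coat hourglass cells for 120 (12.4%), against 9.83%. The contrast that defines these sets favours such ranks, so they are given as a description. GY1, GY2, GY5, KTI1 and VPE2 were highest in the abaxial parenchyma and PIP2-8 in the adaxial parenchyma. In 19 of the 92 named genes lower in the cotyledon the axis parenchyma was the highest compartment, among them CHR1, CHR5, IFS1, CHI1B1, KTI-2, KTI-3, LOX1.1, CYP72A67, SGT2, SGT3, GT4, PGMPM19, BZIP110 and PIN2A.

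The cotyledon parenchyma was low for several of these genes beside its own neighbours. CYP72A67 had a mean of 22944 in the abaxial and 41445 in the adaxial epidermis of the cotyledon and 23165 in its vascular bundle, against 9013 and 667 in its parenchyma. For KTI-2 the corresponding means were 15730.5, 22801 and 14659.5 against 1952 and 227. The adaxial parenchyma was thus the lowest of these 5 cotyledon regions for both genes, which was not tested. Other genes peaked elsewhere: GDH1 had its highest mean in the hilum of the seed coat (6733), HIDH in the palisade layer (22085, against 10378 in the axis parenchyma) and A1 in the axis epidermis (139698).

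**Figure D4:**
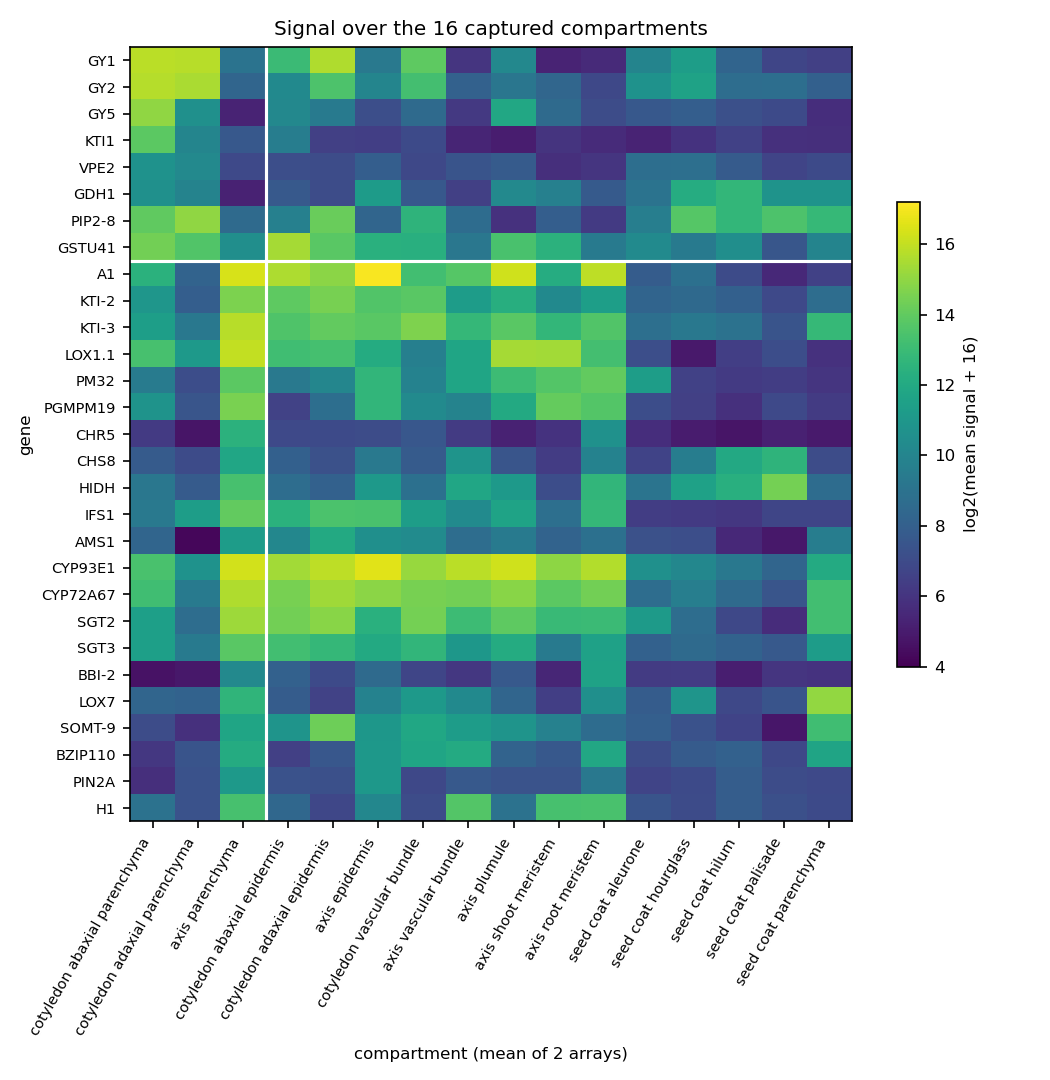
Mean signal (2 arrays, log2(mean + 16), colour) of 29 genes in the 16 captured compartments. The first 3 columns are the regions compared, and the white lines set them and the 8 genes higher in the cotyledon apart. The soyasaponin genes CYP93E1, CYP72A67 and SGT2 are bright in cotyledon epidermis and vascular bundle and dim in the adaxial parenchyma.

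Markers of other tissues, picked with earlier results of these data known, were used to describe what else the captures hold. Of 4 epidermis markers, UGT78K1, GSTIR and SUT1 did not pass the test and SOMT-9 was lower in the cotyledon. Their summed signal was 315.8 to 499.8 on the cotyledon and 3446 and 4453 on the axis arrays. SOMT-9 made up most of the sum on the axis arrays only. None of 10 vascular bundle markers was called, with sums of 811.7 to 1164 and 861.5 and 1162. Of 7 seed coat markers NRT1-3 was called lower, with sums of 961.5 to 1565 and 9485 and 7631. NRT1-3 likewise made up most of the sum on the axis arrays only. The part of other tissues in the differences was not tested, and fewer cells of a type and less RNA per cell cannot be told apart in such captures.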

How the data were processed

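The intensity values used here are the probe set signals of 34 arrays (17 groups of 2) that the authors deposited, on a linear scale, from GCOS 1.3, per the submitters' processing notes; the algorithm within it is not given in the sources used here, and every array has the same trimmed mean. The array number limits the precision. Signals were taken as deposited, 16 was added, and log2 was taken, which understates the change of dim genes. Of 37593 soybean probe sets, 28441 were tested with limma 3.58.1 in R 4.3.3 (lmFit over all 17 groups, eBayes with an intensity trend, Benjamini-Hochberg adjustment over all tested). The threshold was an adjusted p under 0.05 with a log2 difference of at least 1. The fit was tested on simulated data with independent noise and no shift of the hybridization controls. That test does not cover the difference in these controls between the groups.

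GEO's platform annotation and the RefSeq gene table tied 8677 soybean probe sets to 1 gene, 370 to several and 28546 to none; the last 2 kinds were not named. Each gene was read by its probe set of highest mean signal over the 34 arrays. Named were the 15 called genes of largest difference in each direction, up to 4 called members per list and direction with uncalled members where a count needs them, the markers, and up to 6 genes per difference of differences. Outside this rule, and chosen after their values were seen, are the called genes 4CL4, AAH, AOC3, CCR, CHI1A, CHI1B1, CHI2-A, CHI4A, CHS8, CYP90A15, GAI1, GASA33, GER10, IFS1, NARK, PHYA, PIP1-8, PM9 and VLXB. A fold is "at least" where no more arrays of the dimmer group were above the background than under it. Its values under the background were then raised to the background. The members and lists were chosen with earlier results of these data known. Replicate numbers were not used as pairs in the main fit. Between the regions compared, the replicate differences correlated at 0.016, 0.016 and 0.087. With 2 arrays per region, these values cannot exclude that regions share seeds. Alternatives covered the pseudocount, scaling, filter, variance model, hybridization controls, side and each array.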

Additional observations from a re-analysis of the deposited data

Results flagged for a closer look

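The cotyledon-minus-axis difference in parenchyma differed from that in epidermis or in vascular bundle by the test of the difference of differences. The 6 genes of largest difference in each of these tests are given. GDH1 was the 1 gene with a positive value, 8.85 on the log2 scale against the epidermis. Chalcone reductase gene CHR5 differed by -6.83 against the epidermis and -8.58 against the vascular bundle, AT133 by -6.63 and -7.25, and saponin sugar transferase gene SGT2 by -7.84 and -6.98. Against the epidermis GT4 differed by -6.07 and SOMT-9 by -7.37. Against the vascular bundle KTI-2 differed by -7.80, KTI-3 by -7.37 and AMS1 by -7.13. In GDH1, CHR5, AT133, GT4, SOMT-9 and AMS1 the dimmer parenchyma group lay mostly or wholly under the background. The sizes of these 6, and so their order, rest on signals that are not reliable there. What lies behind these differences was not tested.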

How the results depend on the processing

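Of the 148 named genes called, 71 were called under all 19 alternatives for the parenchyma contrast, and 83 without each of the 6 arrays in turn. With 1 array left out, the count of probe sets higher in the cotyledon lay between 573 and 795 and the count lower between 674 and 1036, with the lowest of both without axis replicate 2; without axis replicate 1 the lower count was 737. Called probe sets numbered 591 to 1341 for parenchyma against epidermis (952 with all arrays) and 511 to 1262 against the vascular bundle (864 with all arrays). The lowest of these were 591 and 566 without axis parenchyma replicate 2, 575 without axis vascular bundle replicate 1 and 511 without cotyledon vascular bundle replicate 2. Between the cotyledon sides the range was 144 to 190 (290 with all arrays). A lone array was assumed to vary like the other groups. Under the other alternatives the counts were 749 to 1263 higher and 894 to 1316 lower, and no count moved by over 1.5 times. GASA12 reversed, to 0.31 with the abaxial side alone (adjusted p = 0.819). With the replicate block 1010 were higher and 1162 lower, and 1 of the 148 genes, NARK, lost its call. The hybridization controls move with the groups, and their covariate ended 39 of the 148 calls. Differences of genes under the background in 1 group are bounds, and signals near it have no reliable order.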
